A study of Mus musculus with 8 samples.

Results

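Cytosolic ribosomal protein genes were taken by symbol: Rpl, Rps or Rplp, a number, and at most 1 closing letter (a, x or l). This name rule found 79 genes, 48 of the large and 31 of the small ribosomal subunit, among the 21997 genes listed for both sources of follicles. It uses no measured value, and all 79 passed the filter on low counts. Rows with other pseudogene symbols, mitochondrial ribosomal proteins and the S6 kinases fall outside it, as do the ribosomal proteins Rpsa, Fau and Rps3a1, whose symbols have another form. Rps4l, which GENCODE and RefSeq annotate as a transcribed pseudogene, matches the rule and is counted. RNA was measured in 8 single follicles from ovaries of C57BL/6 mice, 1 library each: preantral follicles (PF) and small antral follicles (SAF), either of wild type mice (WT) or, in the labels' words, from transplanted FGSCs (TF). FGSCs are female germline stem cells. Each of the 4 groups, PF-WT, SAF-WT, PF-TF and SAF-TF, held 2 follicles. The sources used here do not give ages, transplant hosts, which cells of a TF follicle derive from the transplant, or whether the 2 follicles of a group had different donors. The p-values therefore measure only the spread between these follicles.

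The ribosome is built from ribosomal RNA and one copy of most ribosomal proteins; the small subunit reads the mRNA and the large subunit joins the amino acids. The mRNAs of ribosomal proteins are short and abundant, and most begin with a run of pyrimidines, the TOP motif, through which mTORC1 signalling sets how strongly they are translated. In a growing follicle the oocyte stores ribosomes and maternal mRNA while the granulosa cells around it multiply, and theca and stroma surround them.

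Total counts over the shared genes ran from 7654700 to 9804822 per library, and normalised read counts are given as CPM, counts relative to a TMM-scaled library total. None of 20 oocyte and 12 granulosa markers was at 0 in all libraries. That check pools the libraries and does not show that each group held the labelled tissue. Summed oocyte markers ran from 13152 to 34800 CPM in preantral libraries, highest in PF-TF, and from 387 to 4119 CPM in small antral ones, lowest in SAF-TF. Both SAF-TF libraries stood apart in 10 luteal markers, 3 of which are also in the theca list, with 16374 and 22498 CPM against 90.7 to 372 CPM in the other 6 libraries. Macrophage markers reached 1217 and 1573 CPM in SAF-TF and 72.3 to 566 CPM elsewhere. Whether the small antral label fits the SAF-TF libraries was not tested.

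Ribosomal protein mRNAs took a larger share of the counts in small antral than in preantral follicles, and a smaller share in TF than in WT follicles of the same stage. In WT the 79 genes held 3.87% and 3.36% of all counts in PF and 6.47% and 6.33% in SAF. In TF they held 2.01% and 2.29% in PF and 3.21% and 3.72% in SAF. SAF-WT had the highest mean, 6.40% ± 0.101 (SD, n = 2), then PF-WT with 3.62% ± 0.362, SAF-TF with 3.46% ± 0.366 and PF-TF with 2.15% ± 0.193. PF-WT and SAF-TF overlapped, and no other 2 groups did. In such whole-follicle libraries, fewer cells of a type and less RNA per cell cannot be told apart. For single genes the order of the group means was PF-TF, SAF-TF, PF-WT, SAF-WT from low to high in 49 of 79, and PF-TF, PF-WT, SAF-TF, SAF-WT in 22.

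**Figure D1:**
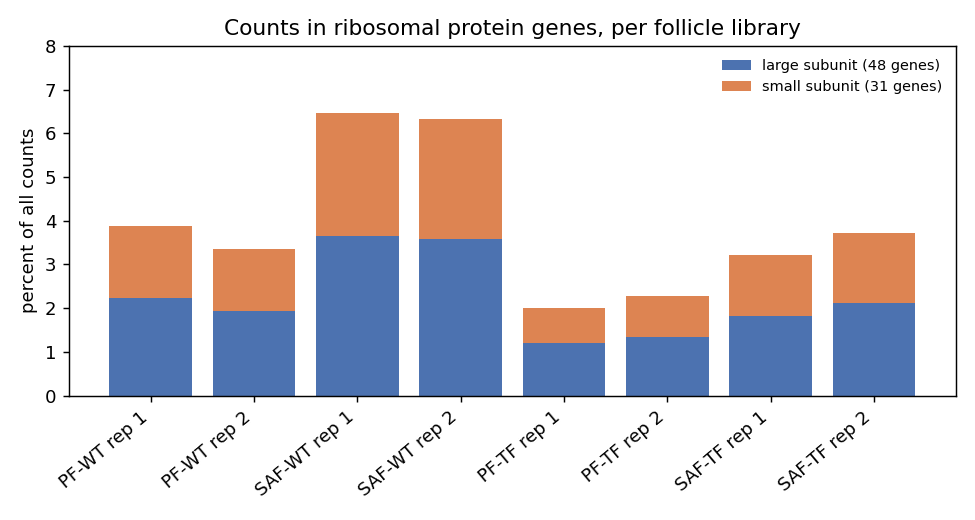
Percent of all counts in ribosomal protein genes (vertical axis) for each of the 8 follicle libraries (horizontal axis), stacked as large subunit and small subunit genes. The bars are highest in SAF-WT (6.47% and 6.33%) and lowest in PF-TF (2.01% and 2.29%).

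Levels differed widely between the genes. Lengths are those of the annotated transcript chosen for each gene, up to 5179 bases for Rps15a, so levels per kb depend on that choice. Per kb of transcript, Rpl41 (2535 CPM per kb), the highest by its mean over 8 libraries, stood with Rpl32 (2152), Rps14 (2099) and Rps19 (2083) at the top; Rpl41 encodes the smallest ribosomal protein, and mutations of human RPS19 cause Diamond-Blackfan anaemia. The 5 lowest were Rps12 (14.6 CPM per kb), Rps13 (14.3), Rpl12 (12.7), Rpl28 (8.20) and Rpl10l (4.69). For 4 of these 5, near copies held part of the counts. Rows named or described as pseudogenes of Rps13 held 71.8% to 81.8% of the counts of gene and pseudogenes together, those of Rpl28 63.1% to 75.9%, those of Rps12 56.2% to 67.2%, and those of Rpl12 15.7% to 32.5%. How reads that match several genes were counted is not given in the sources used here, so a low row is not shown to be a low gene.

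In wild type follicles the ribosomal protein mRNAs rose almost as a block from the preantral to the small antral stage. Of the 79 genes, 59 rose and 2 fell in edgeR's quasi-likelihood test at an adjusted p under 0.05, where 12.7% of all genes tested rose and 22.5% fell. Their median log2 fold change was 0.91, with quartiles of 0.62 and 1.06, against a median of -0.20 and quartiles of -1.27 and 0.64 over all 17925 genes tested. The 2 libraries of SAF-WT both lay above both of PF-WT in 73 genes and both below in 2, where 30.9% and 40% of all genes tested did so. DESeq2 called 63 higher and 2 lower, against 15.9% and 20.3% of all genes. The number that rose was 32 without SAF-WT replicate 1, with a median of 0.84. The quartiles of the ribosomal protein genes thus lay closer together than those of all genes tested. Genes of a like level were not compared.

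Rpl35, a protein near the exit tunnel of the large subunit, had the largest rise. It stood at 475 and 334 CPM in PF-WT and 1227 and 1066 CPM in SAF-WT, a log2 fold change of 1.5 ± 0.24 (SE) with an edgeR adjusted p of 0.00153. Both small antral follicles were far above both preantral ones. Rps18, of the head of the small subunit, followed with 1.31, then Rps19 (1.28), Rpl41 (1.28), Rpl36 (1.28) and Rps26 (1.20), all past the threshold. Rps26 sits at the mRNA exit of the small subunit. The stalk, through which elongation factors bind, rose as a whole: Rplp0 by 0.55 ± 0.16 (edgeR adjusted p = 0.0245), Rplp1 by 1.11 ± 0.19 and Rplp2 by 0.85 ± 0.19. Rplp0 was at 1731 and 1759 CPM in PF-WT and at 2558 and 2544 CPM in SAF-WT, so that its groups were far apart but its change was among the smaller ones.

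Genes with roles outside the ribosome mostly moved with the block. Rps6, the S6 kinase substrate, rose by 0.95 ± 0.23, and Rps3, also a DNA repair factor, by 0.84 ± 0.17. Rpl11 and Rpl23, which can bind Mdm2 and so raise p53, rose by 0.72 ± 0.19 and 1.12 ± 0.19. Rpl5, their partner in binding Mdm2, had 0.43 ± 0.23 and missed the threshold (edgeR adjusted p = 0.17). Rpl38, needed for translation of a group of Hox mRNAs, rose by 0.81 ± 0.23, Rpl24, at a bridge between the subunits, by 1.01 ± 0.20, Rpl26 by 1.15 ± 0.21 and Rps14 by 1.08 ± 0.22. Rps27a, made as a fusion with ubiquitin, had 0.43 ± 0.24 and Rpl10, which joins the large subunit last, 0.49 ± 0.25, neither past the threshold. Pseudogene rows held 60.2% to 67.0% of the counts of Rpl5 and its pseudogenes together. For Rps27a they held 67.6% to 79.3%. The 2 genes that fell were Rpl39l and Rpl17. Oocyte markers fell in the same comparison (13 of 20, median -3.83), as did 6 of 12 granulosa and 9 of 16 cell division markers. Granulosa markers summed to a mean of 2755 CPM in PF-WT and 843 CPM in SAF-WT. All 10 stroma markers and 8 of 9 theca and interstitial markers tested rose. The part of these lists in the rise of ribosomal protein mRNAs was not tested.

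In TF follicles most of the genes rose again, with a similar median. Here 56 genes rose and 6 fell, where 18.2% of all genes tested rose and 25% fell, and the median was 0.75 against -0.08 over all genes tested. The 2 stage comparisons share no library. The genes that rose in both numbered 51, which is 86.4% of those of WT and 91.1% of those of TF. Most of the ribosomal protein genes rose in each comparison, so that a large overlap follows from the counts alone. The overlap over all genes tested is not reported here, so these shares do not show that both sources picked out the same genes. Among those past the threshold in WT but not in TF were Rpl26, Rpl27, Rpl31, Rpl37, Rpl4, Rps23 and Rps7, and in TF but not in WT Rpl10, Rpl15, Rpl8, Rps16 and Rps27; such a split does not show a difference between the sources, which is tested below. Groups did not overlap in 71 genes with SAF-TF higher and in 6 with it lower, where 34.8% and 39.5% of all genes tested did so. DESeq2 called 62 higher and 6 lower, against 20.6% and 23% of all genes.

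Rpl37a, a zinc-binding protein of the large subunit, had the largest rise in TF. It was at 297 and 323 CPM in PF-TF and at 671 and 832 CPM in SAF-TF, a log2 fold change of 1.28 ± 0.21 (edgeR adjusted p = 0.00106). Rpl41 rose by 1.18 ± 0.24, Rps27 by 1.15 ± 0.42, Rps25 by 1.15 ± 0.20, Rps2 by 1.11 ± 0.17 and Rps27l by 1.10 ± 0.24. Rps25 is known for its role in initiation from viral internal entry sites. Of the stalk, Rplp0 rose by 0.62 ± 0.16, Rplp1 by 0.76 ± 0.19 and Rplp2 by 0.77 ± 0.19. Rps6 rose by 0.67 ± 0.23, Rps3 by 0.97 ± 0.17 and Rpl11 by 0.81 ± 0.19, whereas Rpl5 had -0.14 ± 0.23 (edgeR adjusted p = 0.662). The 6 genes that fell were Rpl10l, Rpl39l, Rpl29, Rpl3, Rpl17 and Rps4l. In this comparison 19 of 20 oocyte, 12 of 16 cell division and 3 of 12 granulosa markers fell. Of other lists, 10 of 10 luteal, 10 of 10 stroma and 10 of 11 macrophage markers rose. The part of these lists was not tested. The number that rose was 21 when PF-TF replicate 1 was left out and 24 when SAF-TF replicate 2 was, with medians of 0.76 and 0.67.

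**Figure D2:**
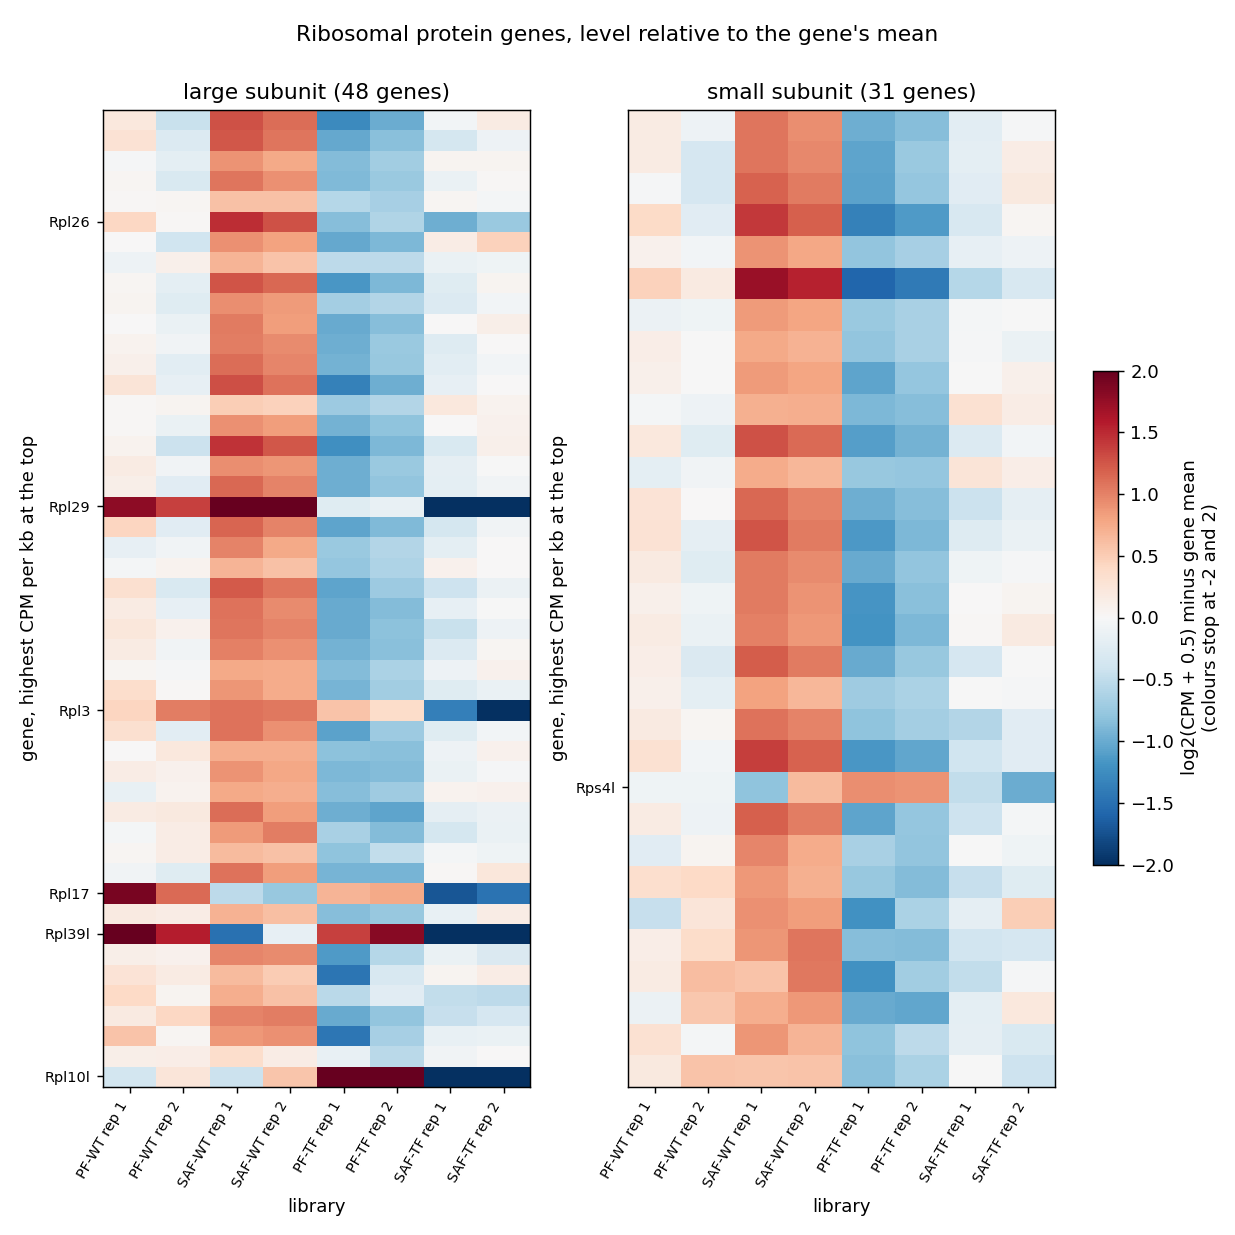
Level of each of the 79 genes (rows) in the 8 libraries (columns) as log2(CPM + 0.5) minus the gene's mean over the libraries, large subunit on the left and small subunit on the right; the 7 genes that break the pattern are labelled. Most rows are red in SAF-WT and blue in PF-TF. Rpl10l, Rpl39l, Rps4l and Rpl17 lack the red in SAF-WT replicate 1, and Rpl29, Rpl3 and Rpl26 are darker blue than most in SAF-TF.

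Between sources at the preantral stage, 77 of the 79 log2 fold changes of PF-TF over PF-WT were below 0, with a median of -0.88 against -0.03 over all genes tested. Only Rps18 passed the threshold, and 0 genes rose, where 0.151% of all genes tested fell and 0.0669% rose. Rps18 was at 887 and 728 CPM in PF-WT and at 214 and 242 CPM in PF-TF, a log2 fold change of -1.82 ± 0.20 (edgeR adjusted p = 0.0212). At an unadjusted p under 0.05, 73 genes were lower (13.3% of all genes tested) and 2 higher (7.49%). DESeq2's Wald test called 62 lower and 1 higher, where it called 5.52% and 1.85% of all genes tested, so that the count depends on the tool while the median hardly moved (-0.91). Both PF-TF libraries lay below both PF-WT libraries in 75 genes and above them in 2, where 26.1% and 22.9% of all genes tested did so. Without PF-WT replicate 2, 43 genes were called lower; without PF-WT replicate 1 or PF-TF replicate 1, 0 were. Erythroid markers summed to 5374 and 2019 CPM in PF-WT and to 9.73 and 337 CPM in PF-TF, with 0 of 5 called, and stroma markers to 558 and 223 CPM against 49.4 and 127 CPM, with 1 of 10 called; their part was not tested.

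At the small antral stage the lower level in TF passed the test in most genes. SAF-TF was lower than SAF-WT in 61 of 79 genes and higher in 0, where 5.34% of all genes tested were lower and 4.61% higher; at an unadjusted p under 0.05 there were 73 lower and 0 higher (14.7% and 13.9% of all genes tested), and by DESeq2 67 lower and 0 higher (9% and 6.9%). The median was -1.07 against 0.00 over all genes tested, and every one of the 79 values was below 0. SAF-TF lay below SAF-WT without overlap in 78 genes and above it in 0, where 32.5% and 31.3% of all genes tested did so. The exception was Rps4l. Of the genes named above, Rplp0 fell by 0.58 ± 0.16 on the log2 scale (edgeR adjusted p = 0.0488), Rplp1 by 1.04 ± 0.19, Rplp2 by 1.00 ± 0.19, Rpl35 by 1.43 ± 0.24, Rps26 by 1.36 ± 0.21 and Rpl5 by 1.18 ± 0.23. Rps3 at -0.50 ± 0.17, Rps2 at -0.49 ± 0.17 and Rpl37a at -0.54 ± 0.20 missed the threshold. The largest falls were in Rpl29, Rpl10l, Rpl3, Rpl26, Rps18 and Rpl39l, which are described below. The count rests on each of the 4 libraries: it was 5 and 33 when SAF-TF replicate 1 or 2 was left out, and 7 and 17 when SAF-WT replicate 1 or 2 was, with medians from -0.98 to -1.12. Luteal markers rose in 9 of 10 and fell in 0 in this comparison, and macrophage markers rose in 6 of 11. Stroma markers fell in 4 of 10, with 9501 and 6547 CPM in SAF-WT against 2382 and 1647 CPM in SAF-TF, and cell division markers fell in 5 of 16; the part of these lists was not tested.

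Short transcripts in general had medians of the same sign; the difference from them was not tested. Among the 1772 other tested genes with transcripts under 1 kb, the median log2 fold change was 0.51 for stage in WT, 0.59 for stage in TF, -0.52 for source in PF and -0.47 for source in SAF, and 26.2% and 33.4% of them rose with stage in WT and TF. With an offset for GC content and transcript length, the medians of the ribosomal protein genes were 1.05, 0.66, -0.47 and -0.85, beside 0.20, 0.08, 0.09 and -0.07 over all genes tested. With this offset 63 of the genes rose with stage in WT and 45 in TF, against 59 and 56 without it. With source 1 was lower in PF and 45 in SAF, against 1 and 61 without it. The shares called over all genes with the offset are not reported here.

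**Figure D3:**
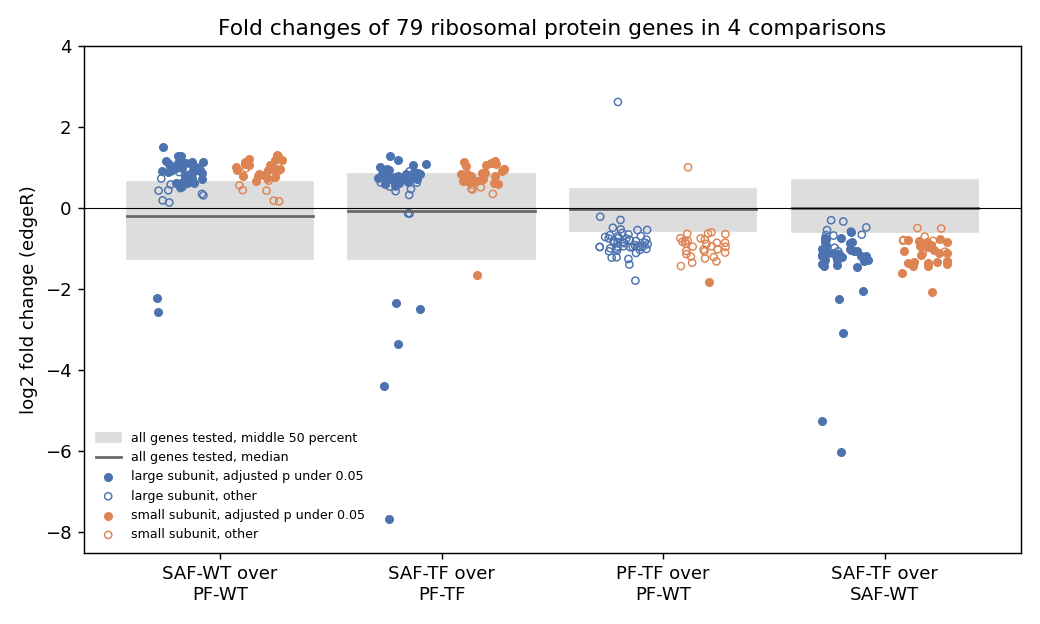
log2 fold change (vertical axis) of each gene in 4 comparisons, large subunit in blue and small subunit in orange, filled where the edgeR adjusted p is under 0.05; the grey band and line give the quartiles and the median of all genes tested. The 2 stage comparisons centre on 0.91 and 0.75 and the 2 source comparisons on -0.88 and -1.07.

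The stage effect differed between the sources in 2 genes. Of the 79 interaction terms (the stage effect in TF minus that in WT), those of Rpl10l (-7.86 ± 1.11, edgeR adjusted p = 0.0185) and Rpl29 (-4.23 ± 0.70, edgeR adjusted p = 0.029) passed the threshold and 0 were above 0 and past it, where 0.245% of all genes tested were lower and 0.658% higher. At an unadjusted p under 0.05 there were 6 lower (6.42% of all genes tested) and 0 higher (8.94%), and by DESeq2 5 lower (1.83%) and 0 higher (2.69%). Without SAF-WT replicate 2 neither gene passed. The term of Rpl10l rests on a group with 1 count in all, so that its size is uncertain. The median of -0.17 stood beside 0.06 over all genes tested. For most ribosomal protein genes a difference in the stage effect was not detectable with 2 follicles a group.

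The large and small subunit had similar medians in each comparison; the difference was not tested. With stage in WT the median was 0.88 for the large and 0.92 for the small subunit, with 35 of 48 and 24 of 31 genes rising. With stage in TF it was 0.75 and 0.79, with 32 and 24 rising. For the source it was -0.86 and -0.94 in PF and -1.07 and -1.05 in SAF, where 38 and 23 genes fell. The ratio of summed large to summed small subunit counts was 1.35 and 1.37 for the WT and 1.47 and 1.44 for the TF preantral follicles, and 1.30 and 1.30 for the WT and 1.31 and 1.31 for the TF small antral ones. Preantral libraries were thus all above small antral ones. That order did not hold without the 3 genes with most counts in each subunit, where the ratio was 1.41 and 1.35 (PF-WT), 1.43 and 1.47 (PF-TF), 1.40 and 1.39 (SAF-WT), and 1.31 and 1.40 (SAF-TF).

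Of the 6 genes that fell with stage in TF, 3 were paralogs: Rpl10l, Rpl39l and Rps4l. Rpl10l and Rpl39l are copies of the X-linked genes Rpl10 and Rpl39 that are known from the male germline, where Rpl10l stands in for Rpl10 in meiosis. The copies can be told apart by sequence, since 98 of 645 coding bases of Rpl10 and Rpl10l differ (84.8% identity), and 23 of 156 of Rpl39 and Rpl39l (85.3%). The whole coding sequences of Rpl39 and Rpl39l are shown because the short protein makes every difference visible. Capitals mark the bases that differ (GENCODE vM21 transcripts, sense strand).
Rpl39: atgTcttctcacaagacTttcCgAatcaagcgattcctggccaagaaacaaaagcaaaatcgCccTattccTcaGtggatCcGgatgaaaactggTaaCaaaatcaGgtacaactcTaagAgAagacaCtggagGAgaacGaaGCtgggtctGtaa
Rpl39l: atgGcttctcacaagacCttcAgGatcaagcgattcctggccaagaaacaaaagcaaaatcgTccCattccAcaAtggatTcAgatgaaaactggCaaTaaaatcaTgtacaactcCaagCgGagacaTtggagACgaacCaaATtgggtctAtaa
A stretch of the coding sequences of Rpl10 and Rpl10l, bases 304 to 393 of each, holds 20 of their differences.
Rpl10: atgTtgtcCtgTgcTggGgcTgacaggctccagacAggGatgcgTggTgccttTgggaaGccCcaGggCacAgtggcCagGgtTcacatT
Rpl10l: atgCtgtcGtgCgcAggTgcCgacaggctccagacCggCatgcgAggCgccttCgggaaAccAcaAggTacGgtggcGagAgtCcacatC

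Rpl39l (GRCm38 chr16:10170197-10174911) fell with stage in both sources. In WT it went from 64.5 and 46.4 CPM in preantral to 5.16 and 13.6 CPM in small antral follicles, and in TF from 40.4 and 55.3 CPM to 2.97 and 1.58 CPM. All 4 preantral libraries were above all 4 small antral ones. The log2 fold change with stage was -2.56 ± 0.47 in WT (edgeR adjusted p = 0.00283) and -4.39 ± 0.53 in TF (edgeR adjusted p = 0.000212). Its parent Rpl39, a small protein lining the exit tunnel, rose instead, from 367 and 231 CPM to 609 and 540 CPM in WT (0.94 ± 0.24) and from 130 and 147 CPM to 213 and 258 CPM in TF (0.76 ± 0.24). Per kb of transcript, Rpl39l made up 11.8% to 22.2% of the pair in the 4 preantral libraries, highest in PF-TF, and 0.463% to 1.88% in the 4 small antral ones.

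Rpl10l (GRCm38 chr12:66283379-66284401) was high in PF-TF alone. It had 134 and 136 counts there, 13 and 26 in PF-WT, and 14 and 31 in SAF-WT; SAF-TF had 1 and 0, so that PF-TF lay above all other libraries. In CPM these were 14.8 and 13.6 in PF-TF, 1.70 and 2.88 in PF-WT, and 1.60 and 3.67 in SAF-WT. PF-TF exceeded SAF-TF 255-fold by the summed counts (270 against 1, 95% exact interval 45.4 to 10120), and SAF-WT exceeded SAF-TF 47.1-fold (45 against 1, 8.03 to 1901); these intervals cover counting error only. The fall with stage in TF passed edgeR's test (adjusted p = 0.00018), the stage effect in WT of 0.19 ± 0.60 did not, and PF-TF over PF-WT, at 2.62 ± 0.59, missed the threshold (edgeR adjusted p = 0.0685). Rpl10l made up 43.2% and 39.5% of the pair per kb in PF-TF, 0.341% and 0% in SAF-TF, and 2.67% to 6.80% in the 4 WT libraries. The Rpl10 row was itself low, at 16.3 to 48.9 CPM, with 45.6% to 53.6% of its counts in pseudogene rows.

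Rps4l (GRCm38 chr6:148354656-148355596), an autosomal copy of the X-linked Rps4x that the annotations call a transcribed pseudogene, followed a like order. It was at 142 and 138 CPM in PF-TF and 69.8 and 69.4 CPM in PF-WT. The small antral libraries had 41.9 and 114 CPM in WT and 52.5 and 36.7 CPM in TF. The 2 PF-TF libraries were the highest, and the 2 SAF-WT libraries lay on either side of PF-WT. The fall with stage in TF was -1.65 ± 0.40 (edgeR adjusted p = 0.00866), and PF-TF over PF-WT was 1.01 ± 0.39 without passing the threshold. Its share of the pair per kb was 19.0% and 17.2% in PF-TF and between 2.34% and 6.33% in the other 6 libraries. Rpl10l and Rps4l were highest in PF-TF, as was the sum of the 20 oocyte markers, and Rpl39l was high in both preantral groups. In WT the means of PF and SAF were 2.29 and 2.64 CPM for Rpl10l and 69.6 and 78.0 CPM for Rps4l. The mean oocyte sum was 14865 CPM in PF-WT and 2495 CPM in SAF-WT. The part of the oocyte markers in these differences was not tested.

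Rps27l, a p53 target in other cells, behaved like the block. It rose with stage by 1.19 ± 0.24 in WT and 1.10 ± 0.24 in TF, and held 97.1% to 98.9% of the pair with Rps27 per kb in all 8 libraries. Rps27 itself had 4.31 to 20.6 CPM, and pseudogene rows held 23.5% to 34.1% of the counts of gene and pseudogenes together. Of pairs whose second gene lies outside the name rule, Rpl22l1 held 72.4% to 80.2% of the pair with Rpl22, Rpl36al 89.9% to 94.2% of that with Rpl36a, and Rpl7l1 2.61% to 5.39% of that with Rpl7. In these 3 pairs the shares stayed within the ranges given in all 8 libraries. They count only the gene rows, without pseudogene rows. Pseudogene rows held 74.96% to 81.13% of the counts of Rpl36a and its pseudogenes together. The share of Rpl36al would thus be lower with those rows added to Rpl36a. For Rpl22 pseudogene rows held 1.88% to 4.14%, and for Rpl7 2.62% to 2.97%. No row for Rpl3l was analysed here.

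**Figure D4:**
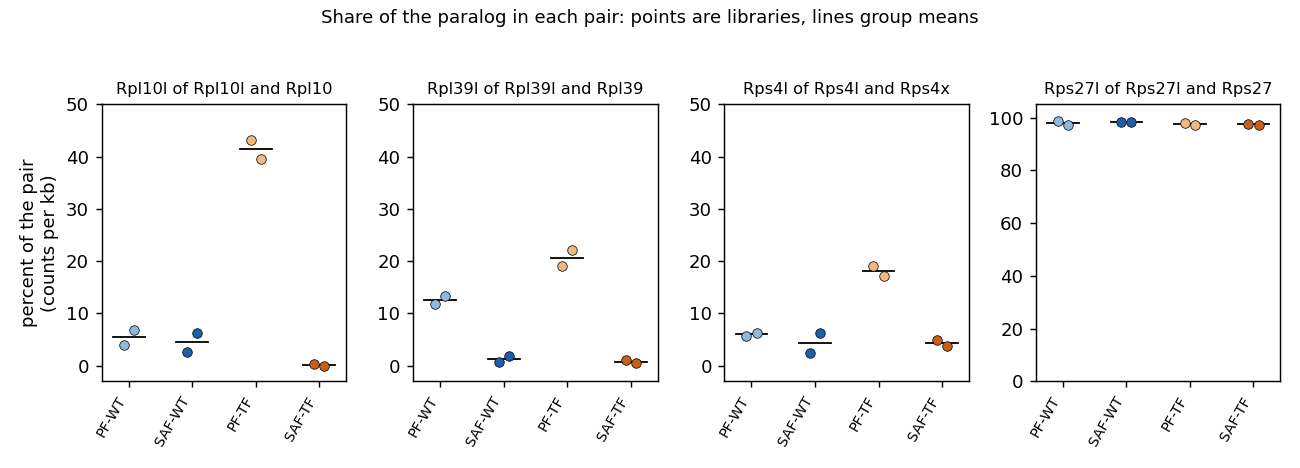
Percent of counts per kb (vertical axis) that the paralog holds of a pair, for Rpl10l, Rpl39l, Rps4l and Rps27l; points are libraries and lines group means (n = 2). Rpl10l reaches 43.2% and 39.5% in PF-TF, Rpl39l is high in both preantral groups, and Rps27l stays at 97.1% or more. Only the gene rows are counted, without pseudogene rows.

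For the other exceptions, the share of counts in rows of near copies differed between the groups. Rows named or described as pseudogenes or look-alikes existed for 68 of the 79 genes, 358 rows in all. Such rows held more than 50% of the counts in every library for 13 of the 68. In 47 of the 68 the share of counts in such rows had group means within 5 percentage points of each other, and in 6 they differed by more than 10: Rpl29, Rpl3, Rpl26, Rpl17, Rps6 and Rps18, chosen here after their values were seen. For 4 of them the copy with most counts or most change is nearly the same sequence. Rpl26 and its processed pseudogene Gm15772 (GRCm38 chr5:3236390-3236928) differ at 2 of 438 bases, Rpl3 and Rpl3-ps1 (chrX:13202518-13203837) at 2 of 1209 aligned bases, Rpl29 and Gm13841 (chr5:115801543-115802209) at 3 of 483, and Rps18 and Gm11361 at 3 of 459. Stretches of 90 bases with 1 difference each, in capitals, show how alike a gene and its copy are (GENCODE vM21 transcripts, bases 88 to 177 of the coding sequence of Rpl26, bases 1 to 90 of Rpl3 and Rpl29).
Rpl26: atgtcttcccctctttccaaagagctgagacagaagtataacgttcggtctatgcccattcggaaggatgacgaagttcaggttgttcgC
Gm15772: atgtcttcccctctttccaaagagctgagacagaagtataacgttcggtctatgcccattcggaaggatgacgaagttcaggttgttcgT
Rpl3: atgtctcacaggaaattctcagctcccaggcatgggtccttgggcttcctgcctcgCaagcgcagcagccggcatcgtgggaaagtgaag
Rpl3-ps1: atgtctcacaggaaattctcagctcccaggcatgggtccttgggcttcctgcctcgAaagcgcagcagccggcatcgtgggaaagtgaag
Rpl29: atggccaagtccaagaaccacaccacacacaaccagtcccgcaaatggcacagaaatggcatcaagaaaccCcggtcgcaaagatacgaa
Gm13841: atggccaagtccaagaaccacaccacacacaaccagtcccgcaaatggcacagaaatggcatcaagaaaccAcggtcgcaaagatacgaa

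Rpl26 (chr11:68901566-68904534), which can bind p53 mRNA, had 54.6% and 55.1% of its counts in pseudogene rows in SAF-TF and 5.5% to 6.8% in the other 6 libraries. The Gm15772 row alone held 3503 and 4090 counts in SAF-TF and 193 to 823 counts elsewhere. The Rpl26 row did not pass the test for stage in TF, with 355 and 422 CPM in PF-TF and 325 and 383 in SAF-TF (-0.13 ± 0.21). Gene and pseudogene rows together had 381 and 452 CPM in PF-TF and 716 and 853 CPM in SAF-TF, a log2 fold change of 0.92 ± 0.21 (edgeR adjusted p = 0.00631), which is like that of the block. The source effect in SAF was -2.24 ± 0.22 for the row and -1.20 ± 0.21 for the sum, past the threshold in both.

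Rpl3 (chr15:80077781-80083406), which shapes the catalytic centre of the large subunit, had 85.8% and 93.9% in pseudogene rows in SAF-TF and 28.6% to 32.2% elsewhere. Its own row stood at 187 and 285 CPM in PF-WT, 296 and 291 CPM in SAF-WT, and 206 and 179 CPM in PF-TF, but 53.8 and 15.3 CPM in SAF-TF. These last values were below all others, with a fall with stage in TF of -2.48 ± 0.48 (edgeR adjusted p = 0.0026). Rpl3-ps1 held 2654 and 1894 counts in SAF-TF and 596 to 1049 elsewhere. Summed, the rows had 289 and 261 CPM in PF-TF and 378 and 251 in SAF-TF, and the stage effect was 0.20 ± 0.25 with an edgeR adjusted p of 0.545. The source effect in SAF went from -3.08 ± 0.49 to -0.48 ± 0.25 and lost its call (edgeR adjusted p = 0.239).

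Rpl29 (chr9:106428889-106431568), also known as a cell surface heparin-binding protein, was the gene besides Rpl10l with a called interaction. Its row was at 550 and 411 CPM in PF-WT and 885 and 894 CPM in SAF-WT. In TF it was at 135 and 143 CPM in PF and 22.3 and 4.96 CPM in SAF, below every WT library. Pseudogene rows held 14.6% to 18.3% of the counts in the 4 WT libraries, 38.4% and 38.0% in PF-TF, and 87.7% and 97.0% in SAF-TF. Summed, the rows had 504 to 1053 CPM in WT, 218 and 231 CPM in PF-TF and 182 and 166 CPM in SAF-TF. The stage effect in TF then was -0.36 ± 0.19 (edgeR adjusted p = 0.148) and the interaction -1.24 ± 0.27 (edgeR adjusted p = 0.0671), neither called. The source effect in SAF remained called at -2.61 ± 0.20 (edgeR adjusted p = 0.00022), and that in PF, at -1.36 ± 0.19, passed the threshold (edgeR adjusted p = 0.0377).

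Rps18 (chr17:33951998-33955665) had 2.4% to 2.8% of its counts in pseudogene or look-alike rows in WT and 14.3% to 17.4% in both TF groups. Its fall in TF remained called with these rows added (-1.61 ± 0.20 in PF and -1.88 ± 0.20 in SAF). Among these rows, Gm11361 is annotated with a coding sequence of 459 bases. It held 137 to 376 counts in the WT libraries and 366 to 870 in the TF libraries. Rpl17 had 56.3% to 64.7% in pseudogene rows in preantral and 89.6% to 91.3% in small antral libraries of both sources. Its row fell from 160 and 94.7 CPM to 29.6 and 25.1 CPM in WT (-2.22 ± 0.29), and the summed rows had -0.13 ± 0.21 (edgeR adjusted p = 0.645); in TF the values were -2.35 ± 0.29 and -0.25 ± 0.21. For Rps6 the shares were 50.1% to 57.1% in preantral and 35.3% to 40.2% in small antral libraries, and with those rows added the stage effect was 0.60 ± 0.20 in WT, still past the threshold, and 0.25 ± 0.20 in TF (edgeR adjusted p = 0.328). Over all 79 genes with every pseudogene row added, 67 rose and 1 fell with stage in WT and 60 rose and 3 fell in TF. With source in SAF 67 fell. The medians were 0.90, 0.75 and -1.07, beside -0.20, -0.10 and -0.001 over all genes tested in that fit. The cause of these shifts was not tested.

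**Figure D5:**
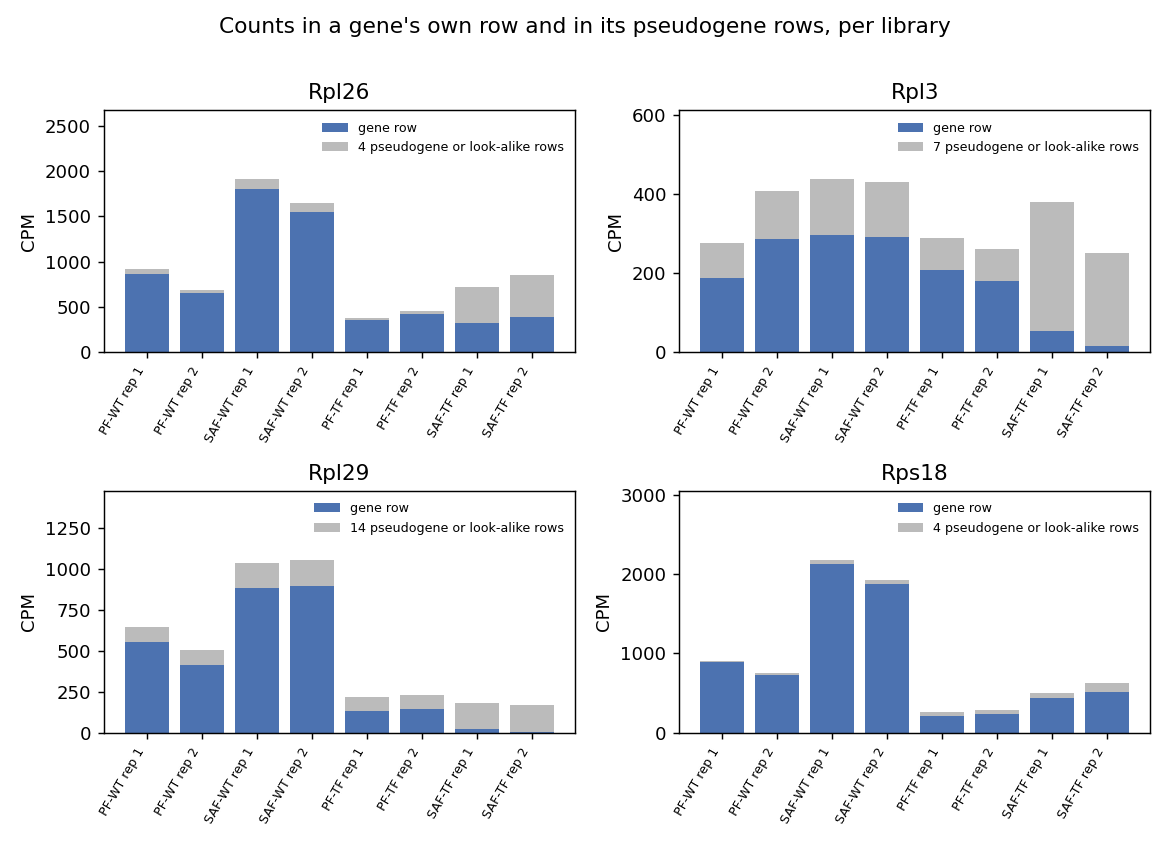
CPM (vertical axis) in the gene's own row (blue) and in its pseudogene or look-alike rows (grey) for Rpl26, Rpl3, Rpl29 and Rps18 in the 8 libraries. In SAF-TF most of the bars of Rpl3 and Rpl29 and over 50% of those of Rpl26 are grey.

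The start regions of the genes were searched for sequence features that the name rule did not use. Promoter windows of 250 bases before to 50 after the start (RefSeq, GRCm38.p6) were at hand for 58 of the 79 and for 11444 genes tested. The ETS-type motif CCGGAAG, sought on both strands, lay in 24 of the 58 (41.4%) and in 17.7% of all 11444. A C followed by at least 4 pyrimidines, starting within 10 bases of the start site as a TOP sequence would, was found in 37 (63.8%) against 35.6%. AAGATGGC, the core of the YY1 motif, was in 8.62% against 4.66%, and TATAAA in 10.3% against 9.67%. A match is a description and not a binding site, and the differences between these shares were not tested. The windows of Rps18, the only gene called between sources in PF, of Rpl41, the highest per kb, and of the exceptions Rpl39l and Rpl10l are shown from 100 bases before to 20 after the start, 5′ to 3′ on the gene's strand, with CCGGAAG in capitals.
Rps18: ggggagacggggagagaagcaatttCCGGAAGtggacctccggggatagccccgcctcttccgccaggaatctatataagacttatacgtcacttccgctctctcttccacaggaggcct
Rpl41: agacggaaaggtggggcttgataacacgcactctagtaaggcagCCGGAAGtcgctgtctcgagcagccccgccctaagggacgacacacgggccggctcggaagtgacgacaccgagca
Rpl39l: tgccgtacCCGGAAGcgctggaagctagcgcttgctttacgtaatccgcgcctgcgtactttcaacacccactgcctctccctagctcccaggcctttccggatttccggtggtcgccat
Rpl10l: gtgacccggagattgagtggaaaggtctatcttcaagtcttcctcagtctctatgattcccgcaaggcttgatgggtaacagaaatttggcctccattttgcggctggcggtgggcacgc
They lie at chr17:33955646-33955765 (minus strand), chr10:128549149-128549268 (minus), chr16:10170128-10170247 (plus) and chr12:66284382-66284501 (minus). The start used for Rpl39l lies inside the gene span given above (chr16:10170197-10174911). That span thus begins within the 100 bases printed before this start. Rps18, Rpl41 and Rpl39l hold the motif in the printed window, and Rpl10l does not.

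Genes that work beside the ribosomal proteins did not all move with them. Of 7 ribosomal or paralogous genes outside the name rule, 4 rose with stage in WT, 5 in TF and 0 fell. Rpsa, of the small subunit, rose by 0.58 ± 0.17 and 0.66 ± 0.17, Rpl22l1 by 1.37 and 1.00, and Rpl36al by 0.66 and 1.11; Gnb2l1, the scaffold Rack1, rose in TF by 0.53. With source in SAF, 3 of the 7 were lower, Rpl22l1 and Rpl36al among them, and Rpl36al was lower in PF (-1.18, edgeR adjusted p = 0.0489). Of 16 elongation factors and other TOP mRNAs, 6 rose with stage in WT and 5 in TF, and 0 fell. Eef1a1, which brings aminoacyl-tRNA to the ribosome, rose from 2985 and 3199 CPM to 4952 and 4788 CPM in WT (0.66) and from 2515 and 2281 to 4748 and 3952 CPM in TF (0.86). All 4 small antral values exceeded all 4 preantral ones.

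Of 93 ribosome biogenesis factors, 28 fell and 2 rose with stage in WT, and 30 fell and 3 rose in TF, with medians of -0.47 and -0.52. These shares of falls, 30.1% and 32.3%, stand beside 22.5% and 25% over all genes tested, and most of the 93 were not called. All of Noc4l (log2 fold changes of -3.38 and -3.29), Nol10 (-2.13 and -2.50), the kinase Riok1 (-1.75 and -2.37) and the GTPase Bms1 (-1.51 and -1.79) fell. Nhp2, a snoRNP protein, was lower in PF-TF than in PF-WT (-1.10, edgeR adjusted p = 0.0489), and Npm1, a nucleolar chaperone, was lower in SAF-TF than in SAF-WT (-1.36). Of 34 initiation factors, 11 fell and 2 rose in WT and 6 fell and 2 rose in TF, so that 32.4% and 17.6% fell, above the share over all genes in WT and below it in TF. Eif4e1b, the oocyte form of the cap-binding protein, fell in both, from means of 15.8 CPM in PF-WT and 18.4 CPM in PF-TF to 0.586 and 0.279 CPM in the small antral groups. Of 36 genes of mTORC1 and TOP control, 10 fell and 1 rose in WT and 7 fell and 4 rose in TF. The shares that fell, 27.8% and 19.4%, lay above that over all genes tested in WT and below it in TF. Mycl, a Myc family factor, fell (-2.33 and -1.87), Rragd, a Rag GTPase, rose in TF by 2.30 and Eif4ebp1, a translation repressor, by 0.91. Mitochondrial ribosomal proteins rose in 26 of 76 and fell in 6 with stage in WT, and rose in 29 and fell in 2 in TF, with a median of 0.24 in both; 12 fell and 1 rose with source in SAF. Their medians lay between those of the cytosolic genes and of all genes tested in both stage comparisons and both source comparisons, and the differences were not tested.

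The authors' deposited table of SAF against PF, by a test not named in the sources used here, calls more of the genes. At its adjusted p under 0.05, 72 of the 79 were higher and 2 lower in WT, where 20.7% of its genes were higher and 14% lower, and 66 higher and 6 lower in TF, where 24% were higher and 16.7% lower. All 59 and 56 genes that rose in edgeR's test are among them, as are the 2 and 6 that fell. Its median log2 ratio in TF was 1.10 for the ribosomal protein genes and 0.29 over all its genes.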

How the data were processed

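The deposited tables, 1 per source, hold raw counts per gene for the 8 single-follicle libraries. Per the labels' protocols, cDNA was made from poly(A) RNA by the SMARTer Ultra Low Input method. HISAT2 2.0.1 and GRCm38 are named in the submitters' processing notes. As to the counter, annotation, strand setting and handling of multiply mapped reads: not given in the sources used here. Per the file headers the authors' normalized columns are a signal per group, the log2 column is the authors' SAF over PF ratio, and the deposited adjusted p-value column belongs to that comparison.

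Counts of the 21997 shared genes were fitted together with edgeR 4.0.16 (R 4.3.3): TMM factors, filterByExpr with 10 counts a library and 15 in all (17925 genes), 1 mean per group, the quasi-likelihood test, Benjamini-Hochberg adjustment over all genes tested and a threshold of 0.05. That left 4 residual degrees of freedom, and the common biological coefficient of variation was 0.303. Standard errors (SE) are of log2 fold changes. The fit was tested on simulated data. A count of 0 allows up to 3 counts, 0.301 to 0.393 CPM, counting error only. Gene positions and promoters are from RefSeq (GRCm38.p6), and lengths, GC content and coding sequences from GENCODE vM21. The length is that of the longest principal protein-coding transcript of a gene, where such a transcript was annotated. Levels and pair shares per kb depend on this choice. Pseudogene rows were found by symbol (135) or description (223).

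The members, gene lists and marker lists were chosen with earlier results of these data known. Genes were named by rule: every paralog pair, up to 6 with the largest called change per direction, those called against the majority, the 5 highest and lowest per kb, a list of genes with known roles, and up to 4 of each outside list with the smallest p; some genes so chosen are not reported here. Alternatives were RLE factors, the authors' scale factors, scaling without ribosomal protein rows, 2 other filters, DESeq2 1.42.0, pseudogene rows added, a replicate block, a fit of only the 4 libraries compared, an offset for GC content and length, and leaving out each library. Apart from DESeq2, the shares called over all genes under these alternatives are not reported here. Their counts thus do not show whether a change in calls is particular to the ribosomal protein genes.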

Additional observations from a re-analysis of the deposited data

Results flagged for a closer look

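The stage effect differed between the sources, by the interaction term of the fit, in Rpl10l (-7.86, edgeR adjusted p = 0.0185) and Rpl29 (-4.23, edgeR adjusted p = 0.029). Rpl10l had 270 counts over both PF-TF libraries and 1 over both SAF-TF libraries, and 13 to 31 in each WT library. Without SAF-WT replicate 2 neither was called, and when SAF-WT replicate 1 was left out Rpl10l was called and Rpl29 was not. With pseudogene rows added, the value of Rpl29 was -1.24 (edgeR adjusted p = 0.0671). Groups of 2 follicles are too small to single out a library by its distance from the others.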

How the results depend on the processing

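The medians kept their sign under all alternatives run in both stage and both source comparisons. With the authors' scale factors, set within each table and so not run between sources, the stage medians were 1.25 in WT and 1.10 in TF, beside 0.14 and 0.27 over all genes. DESeq2 called 1 gene higher and 62 lower with source in PF and 5 lower in the interaction. For source in PF, 14 genes were lower with no low-count filter, 2 with scaling without ribosomal protein rows, 0 in the fit of only 4 libraries and 0 with the replicate block. The offset for GC content and length gave medians of -0.47 (PF source), -0.85 (SAF source) and -0.38 (interaction, 5 lower). With all pseudogene rows added, an alternative chosen after seeing the data, 1 gene fell with stage in WT, 3 in TF, 2 with source in PF and 1 in the interaction; the stage effect in TF of Rpl26 became 0.92 and of Rpl3 0.20. With the -ps rows alone 1 gene fell with stage in WT and Rpl3 had 0.16. Shares of counts became 4.01% (PF-WT), 7.02% (SAF-WT), 2.39% (PF-TF) and 3.89% (SAF-TF) with all pseudogene rows, and in SAF-WT 6.73% with the -ps rows and 6.52% without mitochondrial genome rows. Large over small without the 3 top genes of each averaged 1.38 in PF-WT, 1.39 in SAF-WT and 1.36 in SAF-TF.

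Leaving out 1 library gave 32 to 58 genes higher with stage in WT, 21 to 62 in TF (medians 0.67 to 0.99), 0 to 43 lower with source in PF (medians -1.05 to -0.73), 5 to 65 lower in SAF, and 0 to 3 lower in the interaction, whose median ran from -0.27 to 0.036; a group left with 1 library is assumed to vary like the others. The replicate numbers are shared only as numbers: the correlation of replicate differences was 0.0142 and 0.159 between stages in WT and TF, and -0.146 and -0.104 between sources in PF and SAF. With the replicate block 55 genes rose with stage in WT and 51 in TF, 50 were lower with source in SAF and 2 in the interaction. With 2 follicles a group, single genes in the PF source comparison and the interaction are the least certain calls.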
